A study of Mus musculus with 12 samples.

Results

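The 10 genes Klf2, Klf3, Klf4, Klf5, Klf6, Klf9, Klf10, Klf11, Klf13 and Klf15 encode Krüppel-like factors (KLFs), a family of zinc finger transcription factors. They were selected from the count table by gene symbol, by a rule that uses no measured value although it was set with earlier results of these data known, and make up 10 of the 20295 genes in the count table. All 10 were present and all 10 passed the filter on low counts. Their levels were measured by RNA sequencing in mature epididymal white adipocytes (eWAs) of lean male C57/BL6J mice. The cells were floated from collagenase-digested epididymal fat, embedded in a hydrogel and cultured for 2 days in all 4 groups. DMSO cells received neither lipase inhibitors nor agonist, where the name is that of the solvent in the sample titles. ISO cells received isoproterenol, an agonist of all β-adrenergic receptors, for 3 h. Lip cells received lipase inhibitors without the agonist, and the study's methods name Atglistatin, against adipose triglyceride lipase (ATGL), and CAY10499, against hormone-sensitive lipase (HSL), as such inhibitors. Lip+ISO cells received the inhibitors and then ISO for 3 h. Each group had 3 libraries. The age of the mice and how many mice went into a culture are not given in the sources used here, so p-values measure the spread between these libraries.

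KLFs share a carboxy-terminal DNA-binding domain of C2H2 zinc fingers that recognizes GC-rich and CACCC-type sites, while their amino-terminal parts differ and recruit either coactivators or corepressors. In the fat lineage, KLF4, KLF5, KLF6, KLF9, KLF13 and KLF15 are known for promoting adipogenesis, whereas KLF2 and KLF3 are known for restraining it. KLF10 and KLF11 are TGF-β-inducible repressors that bind SIN3A. Isoproterenol raises cAMP, and cAMP both activates transcription through factors such as CREB and starts lipolysis. The 2 treatments therefore ask how each KLF gene responds to the agonist, with the lipases active or inhibited.

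Library totals ranged from 22632220 to 43707557 counts, so that a count of 0 allows a level of up to 0.0678 to 0.132 CPM (3 counts of the total, counting error only), where CPM is the usual count scaled to a fixed library size. The 8 genes listed as a check of the cAMP response (such as Crem, Nr4a1 and Ppargc1a) were higher in both comparisons of ISO with its control (8 of 8). Of all tested genes, 12.3% were higher without and 11.5% with the inhibitors. The 8 adipocyte markers summed to between 23896 and 38136 CPM in every library, with no marker at 0. Markers of other cell types were present at lower levels. The 10 endothelial markers summed to 133 to 252 CPM in DMSO, 302 to 545 in ISO, 67.4 to 218 in Lip and 102 to 299 in Lip+ISO. The 9 macrophage markers summed to 52.3 to 66.2, 111 to 165, 55.6 to 62.0 and 71.4 to 124 CPM in the same order, and the 7 fibroblast markers to 446 to 781, 888 to 1174, 597 to 633 and 546 to 739 CPM. The 5 mesothelial markers summed to 12.8 to 65.9 CPM and the 6 mural cell markers to 208 to 431 CPM over all libraries. Hba-a1 and Hbb-b1 of erythrocytes were at 0 in all 12. Whether reads of Hba-a1 and Hbb-b1 could be counted was not tested, so a level of 0 does not show that erythrocytes were absent. In these bulk samples, more or fewer cells of a type and more or less RNA per cell cannot be told apart.

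The start regions of 5 genes are printed because these genes rose with ISO both with and without the inhibitors, and that of Klf15 because Klf15 fell in both comparisons. Each window runs from 250 bases before to 30 bases after the gene's start in the count table, read from the same genome build (mm9), on the strand of the gene. Capitals mark each half-site of the cAMP response element, the 5 letters TGACG or CGTCA on its other strand.
Klf4 (chr4:55545318-55545597, minus strand): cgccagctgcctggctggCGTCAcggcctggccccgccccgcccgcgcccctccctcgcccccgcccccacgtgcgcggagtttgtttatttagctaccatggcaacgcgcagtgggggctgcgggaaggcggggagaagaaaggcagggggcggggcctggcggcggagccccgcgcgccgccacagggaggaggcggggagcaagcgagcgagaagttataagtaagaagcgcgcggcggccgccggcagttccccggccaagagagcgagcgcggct
Klf3 (chr5:65194512-65194791, plus strand): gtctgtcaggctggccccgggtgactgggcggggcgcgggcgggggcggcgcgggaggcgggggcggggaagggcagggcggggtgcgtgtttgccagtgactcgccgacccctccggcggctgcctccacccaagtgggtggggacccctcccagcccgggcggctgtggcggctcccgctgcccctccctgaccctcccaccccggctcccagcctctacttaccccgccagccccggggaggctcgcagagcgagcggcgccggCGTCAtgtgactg
Klf2 (chr8:74842711-74842990, plus strand): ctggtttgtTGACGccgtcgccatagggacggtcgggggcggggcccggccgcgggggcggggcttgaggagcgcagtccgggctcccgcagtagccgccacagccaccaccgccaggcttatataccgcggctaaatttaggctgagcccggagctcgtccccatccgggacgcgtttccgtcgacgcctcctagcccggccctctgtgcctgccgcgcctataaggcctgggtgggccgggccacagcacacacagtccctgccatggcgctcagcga
Klf9 (chr19:23215466-23215745, plus strand): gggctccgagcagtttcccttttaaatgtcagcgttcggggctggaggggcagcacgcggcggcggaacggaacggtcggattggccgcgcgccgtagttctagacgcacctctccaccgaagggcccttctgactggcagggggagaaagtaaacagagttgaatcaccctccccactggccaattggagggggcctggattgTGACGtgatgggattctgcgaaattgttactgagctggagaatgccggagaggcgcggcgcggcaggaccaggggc
Klf10 (chr15:38230437-38230716, minus strand): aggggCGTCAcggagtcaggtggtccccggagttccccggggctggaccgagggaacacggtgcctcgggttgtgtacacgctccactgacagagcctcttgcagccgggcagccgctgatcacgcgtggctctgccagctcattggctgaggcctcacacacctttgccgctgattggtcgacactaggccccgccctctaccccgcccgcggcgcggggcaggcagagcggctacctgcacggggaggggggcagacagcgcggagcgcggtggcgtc
Klf15 (chr6:90412370-90412649, plus strand): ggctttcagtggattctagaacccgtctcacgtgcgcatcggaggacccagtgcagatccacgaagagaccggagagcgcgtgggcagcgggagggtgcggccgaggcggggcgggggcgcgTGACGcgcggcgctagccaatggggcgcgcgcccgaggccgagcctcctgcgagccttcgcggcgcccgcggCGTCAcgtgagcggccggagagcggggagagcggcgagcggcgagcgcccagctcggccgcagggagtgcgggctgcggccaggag

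The half-site was found in 8 of the 10 KLF windows, all but those of Klf6 and Klf11. It was found in 23.9% of the windows of all 20295 genes and in 31.3% of the 8198 windows with at least 60% G and C. The KLF windows held between 62.1% and 77.9% G and C. All 5 printed windows of genes that rose held 1 half-site, at position 18 after the start in Klf3, and 46 (Klf9), 232 (Klf4), 241 (Klf2) and 245 (Klf10) bases before it. The window of Klf15, which fell, held 2, beginning 128 and 56 bases before the start, and the second overlaps an E-box (CACGTG). The windows of Klf5 and Klf13, which passed neither test of ISO against its control, held 1 each. The half-site was thus present in windows of genes that rose, fell or did neither. The full palindrome TGACGTCA, which contains the half-site on both strands, was found in 0 of the 10 KLF windows, in 2.48% of all windows and in 3.32% of GC-rich windows. The motif core CACCC was found in 6 KLF windows (57% of all, 67.6% of GC-rich windows). The GC box GGGCGG was found in 8 (47.9% of all, 82.1% of GC-rich windows) and the E-box in 4 (7.81% of all, 10.8% of GC-rich windows). All motifs were searched on both strands. The motifs were chosen with the expression results known, and a match of letters is a description of the window, not of binding. The starts of 7 genes equaled an annotated GENCODE start, whereas the nearest one lay 2 bases away for Klf10, 29 for Klf2 and 50 for Klf15.

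In DMSO, Klf6 was the most abundant of the 10 genes per length (62.7 ± 2.08 CPM per kilobase of counted sequence, SD, n = 3), followed by Klf9 (28.3 ± 1.79). Klf4 (12.6 ± 2.82), Klf3 (12.5 ± 0.160) and Klf13 (11.996 ± 2.087) formed a middle group whose neighbours overlapped in range. Klf10 followed at 9.63 ± 0.0269, apart from both sides. Klf11 (4.23 ± 0.450), Klf2 (3.69 ± 1.11) and Klf15 (2.48 ± 0.330) again overlapped with their neighbours, and Klf5 was lowest (0.438 ± 0.240). Klf6 thus made up 42.2% ± 2.11 of the summed KLF level in DMSO and Klf4 8.44% ± 1.61.

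In ISO this order was different. Klf4 came first at 231 ± 40.1 CPM per kilobase, followed by Klf9 (63.3 ± 2.39) and Klf6 (60.7 ± 1.99), whose ranges overlapped. Klf3 (30.4 ± 1.19) and Klf10 (17.1 ± 0.943) stood apart from their neighbours, Klf13 (10.3 ± 1.24) overlapped Klf2 (8.49 ± 1.44), and Klf11 (4.39 ± 0.612) stood above Klf15 (0.966 ± 0.285) and Klf5 (0.541 ± 0.364), which overlapped. Among 20199 genes with at least 100 counted bases, Klf4 went from rank 5087 by mean level per length in DMSO to rank 274 in ISO. In Lip, the order began with Klf6 (66.3 ± 2.41), Klf9 (29.5 ± 1.23) and Klf4 (17.6 ± 3.44), where Klf4 overlapped Klf13 (14.4 ± 1.01). Klf3 (12.9 ± 0.424), Klf10 (8.23 ± 0.359), Klf2 (4.90 ± 0.132), Klf11 (3.76 ± 0.518), Klf15 (3.15 ± 0.270) and Klf5 (0.849 ± 0.880) followed in Lip, of which Klf11 and Klf15 overlapped. In Lip+ISO, Klf4 led again (237 ± 81.7), and Klf9 (53.2 ± 10.6), Klf3 (50.6 ± 5.94) and Klf6 (46.5 ± 2.75) overlapped in turn. Klf10 (20.4 ± 0.655), Klf13 (15.2 ± 2.83), Klf2 (8.74 ± 0.513), Klf11 (2.13 ± 0.202), Klf15 (1.31 ± 0.267) and Klf5 (0.505 ± 0.251) each stood apart from the next.

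The summed level of the 10 genes was 149 ± 5.09 CPM per kilobase in DMSO, 427 ± 43.3 in ISO, 162 ± 4.73 in Lip and 435 ± 81.6 in Lip+ISO. Klf4 made up 53.8% ± 3.83 of it in ISO and 53.4% ± 8.22 in Lip+ISO, against 10.9% ± 1.88 in Lip. Without Klf4, the other 9 genes summed to 136 ± 2.71 in DMSO, 196 ± 3.77 in ISO, 144 ± 3.19 in Lip and 199 ± 13.0 in Lip+ISO. The share of Klf6 was 14.3% ± 0.977 in ISO, 41.1% ± 2.36 in Lip and 11.0% ± 2.32 in Lip+ISO.

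**Figure D1:**
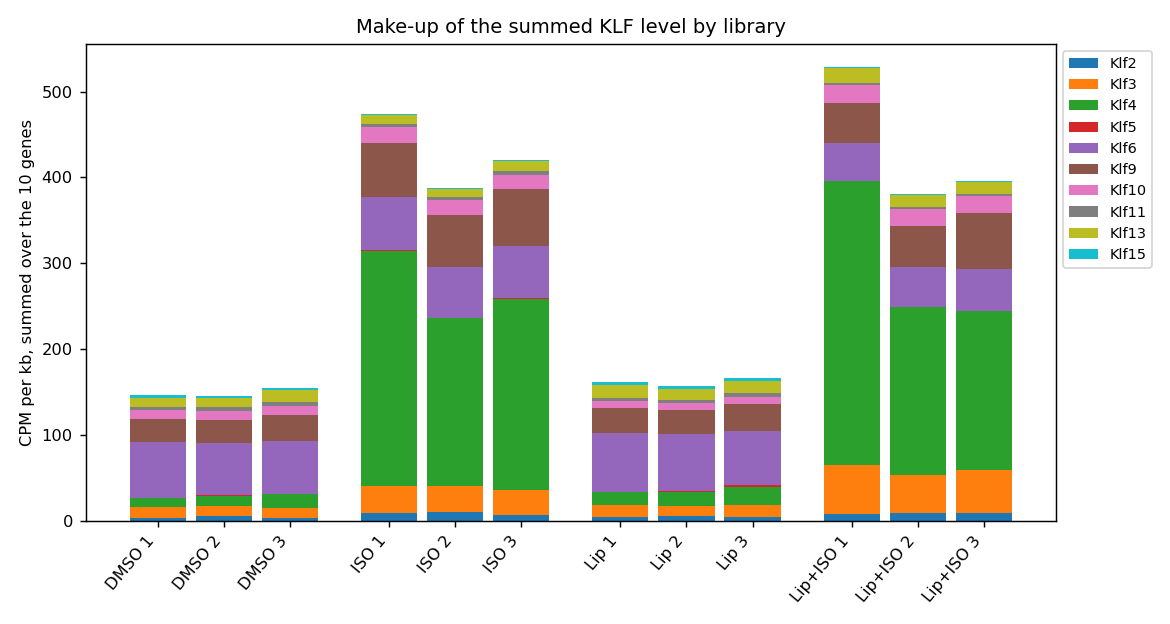
Stacked bars give the level of each of the 10 KLF genes (CPM per kilobase of counted sequence) in each of the 12 libraries. Bars of ISO and Lip+ISO libraries reach 381 to 529 and those of DMSO and Lip libraries 145 to 166, with Klf4 the largest segment in all 6 libraries that received ISO.

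With ISO against DMSO, 5 of the 10 genes rose (Klf4, Klf3, Klf2, Klf9 and Klf10) and 1 fell (Klf15), while Klf5, Klf6, Klf11 and Klf13 did not pass (quasi-likelihood F-test of edgeR, with passing set at 0.05 for the p adjusted over 13543 genes). Of all tested genes, 12.3% rose and 13.9% fell. With a size of at least 1 log2 unit asked as well, 4 KLF genes rose and 1 fell, against 5.68% and 1.8% of all genes. The median log2 fold change was 0.56 over the 10 genes and 0.00 over all genes. Every one of these 6 calls held when any library, or any replicate number, was left out.

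With the inhibitors present (Lip+ISO against Lip), the genes that rose were again Klf4, Klf3, Klf10, Klf9 and Klf2, and 3 genes fell (Klf15, Klf11 and Klf6), while Klf5 and Klf13 did not pass. Of all tested genes, 11.5% rose and 15.8% fell. At 1 log2 unit or more, Klf4, Klf3 and Klf10 rose (4.19% of all genes) and Klf15 fell (3.16% of all genes). The median was 0.45 over the 10 genes and -0.00 over all genes. These 8 calls also held without any library or replicate number. The 2 comparisons share no library, but they come from the same fit, and libraries with the same replicate number deviated together.

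**Figure D2:**
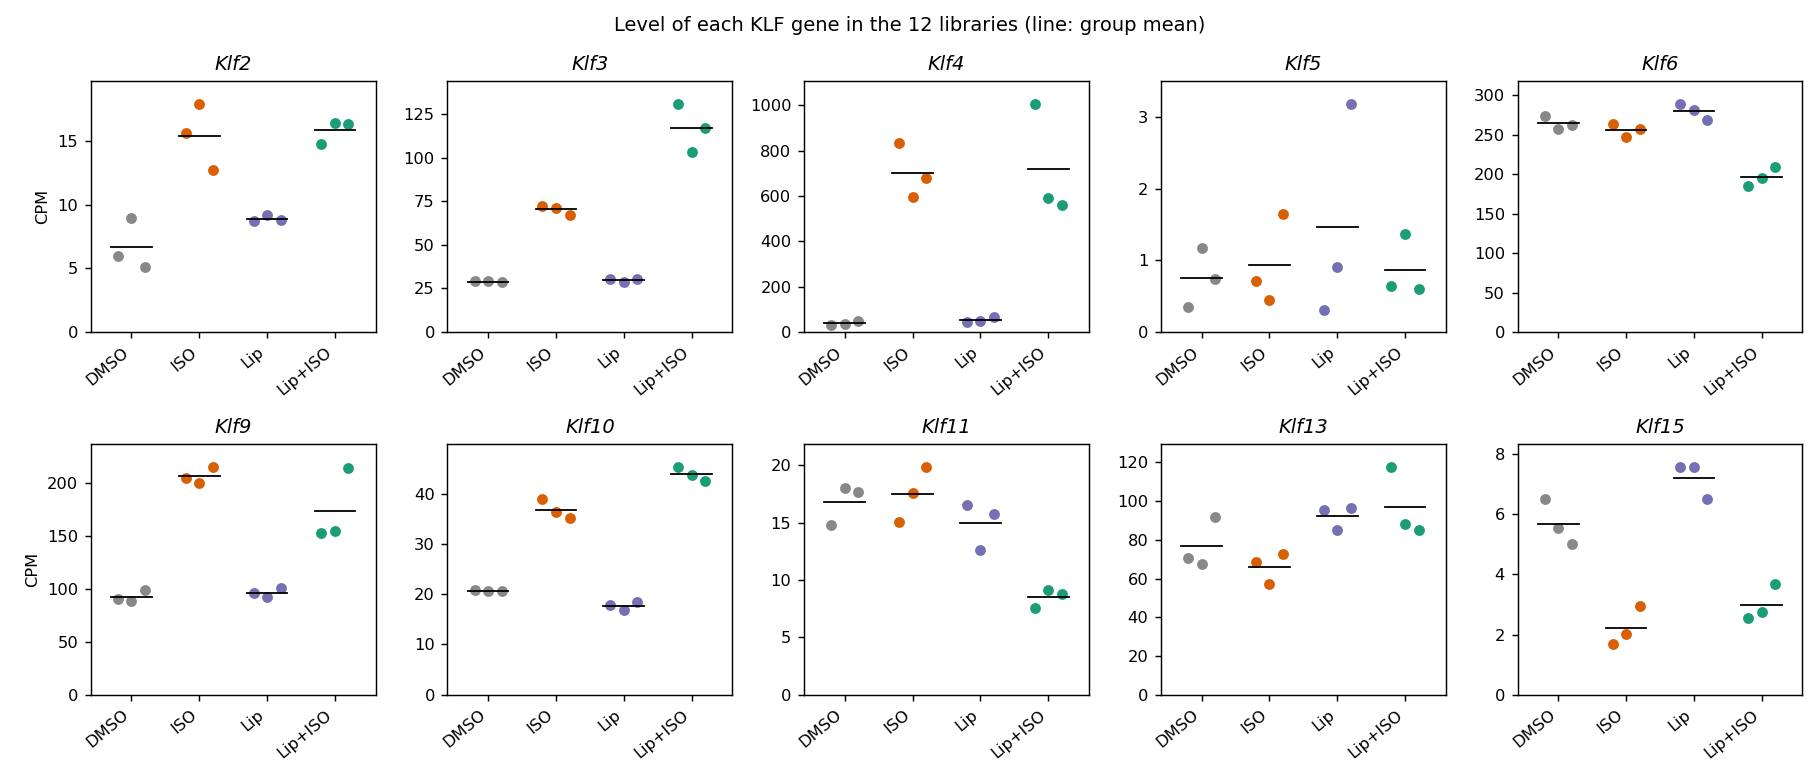
Each panel shows 1 KLF gene, with CPM on a linear axis from 0, 1 point per library (replicates 1 to 3 from left to right) and a line at the mean of each group of 3. All ISO and Lip+ISO points of Klf2, Klf3, Klf4, Klf9 and Klf10 lie above all DMSO and Lip points, and those of Klf15 lie below.

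Klf4 (NM_010637, chr4:55540009-55545347, minus strand), a reprogramming factor that acts early in adipocyte differentiation, changed most. Its level was 31.3, 35.8 and 47.9 CPM in DMSO replicates 1 to 3 and 836, 596 and 678 CPM in ISO. In Lip it was 45.7, 49.4 and 65.4 CPM, and in Lip+ISO 1007, 593 and 561 CPM. The libraries with and without ISO lay far apart, and Lip+ISO replicate 1 was the highest of all 12. The log2 fold change was 4.20 ± 0.26 (SE) with ISO against DMSO (18.4-fold, adjusted p = 3.1e-07, edgeR), which ranked 35 among the rises of 13543 genes. With the inhibitors it was 3.75 ± 0.26 (13.5-fold, adjusted p = 3.1e-07, edgeR), rank 59. Between Lip+ISO and ISO the difference was 0.04 ± 0.23 (95% interval -0.46 to 0.53, adjusted p = 0.947, edgeR), and the interaction, that is the ISO response with inhibitors minus that without, was -0.45 (95% interval -1.16 to 0.26, adjusted p = 0.608, edgeR). The groups Lip+ISO and ISO overlapped. Klf4 had between 0.280 and 8.66 reads per counted base. The study's methods describe keeping 1 read per position and read length, and the part of such a limit in the highest Klf4 counts was not tested.

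Klf3 (NM_008453, chr5:65194762-65221368, plus strand), a repressor that binds the corepressor CtBP, varied little within DMSO, ISO and Lip and more within Lip+ISO. Its level was 29.3, 29.0 and 28.5 CPM in DMSO, 72.5, 71.2 and 67.2 in ISO, 30.6, 28.7 and 30.3 in Lip and 131, 103 and 117 in Lip+ISO. Lip+ISO was the highest group, ISO the next, and neither overlapped another group. The log2 fold change with ISO was 1.28 ± 0.09 (adjusted p = 5.9e-07, edgeR) without and 1.97 ± 0.09 (adjusted p = 6.8e-09, edgeR) with the inhibitors.

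Klf10 (NM_001289471, chr15:38221219-38230466, minus strand), the TGF-β-inducible early gene, was also highest in Lip+ISO and next in ISO, but lowest in Lip. It was at 20.7, 20.7 and 20.6 CPM in DMSO, 39.0, 36.3 and 35.1 in ISO, 17.8, 16.9 and 18.4 in Lip and 45.4, 43.7 and 42.6 in Lip+ISO. None of the 4 groups overlapped. Klf10 rose with ISO by a log2 fold change of 0.83 ± 0.08 (adjusted p = 8.5e-06, edgeR) without and 1.31 ± 0.08 (adjusted p = 8.8e-08, edgeR) with the inhibitors.

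Klf9 (NM_010638, chr19:23215716-23241401, plus strand), a factor induced by glucocorticoid and thyroid hormone, was at 90.0, 88.0 and 99.0 CPM in DMSO and 204, 200 and 215 in ISO. It was at 95.9, 92.2 and 100 CPM in Lip and 152, 155 and 213 in Lip+ISO. Both ISO groups lay above both groups without ISO, and Lip+ISO replicate 3 stood with the ISO libraries rather than with its own group. The log2 fold change with ISO was 1.16 ± 0.12 (adjusted p = 1.5e-05, edgeR) without and 0.85 ± 0.11 (adjusted p = 1.1e-04, edgeR) with the inhibitors. The fitted difference between Lip+ISO and ISO, -0.25 ± 0.11, did not pass (adjusted p = 0.202, edgeR), and without Lip+ISO replicate 3 it was -0.42 and passed (adjusted p = 0.00865, edgeR). With the replicate number as a block it was -0.26 and passed too (adjusted p = 0.0411, edgeR).

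Klf2 (NM_008452, chr8:74842961-74845553, plus strand), a flow-induced factor of endothelium that represses Pparg in preadipocytes, was at 5.97, 8.98 and 5.13 CPM in DMSO and 15.6, 17.9 and 12.7 in ISO. It was at 8.73, 9.17 and 8.80 CPM in Lip and 14.8, 16.5 and 16.4 in Lip+ISO. Groups with and without ISO did not overlap. The log2 fold change was 1.21 ± 0.19 (adjusted p = 5.3e-04, edgeR) without and 0.83 ± 0.19 (adjusted p = 0.00458, edgeR) with the inhibitors. Klf2 and Klf4 are both expressed by endothelial cells and macrophages. With ISO against DMSO, 1 of 10 endothelial markers (Cldn5, log2 fold change 2.52) and 7 of 9 macrophage markers rose, against 12.3% of all genes. Their medians were 0.95 and 1.07. With the inhibitors, 1 endothelial (Cldn5, 1.50) and 3 macrophage markers rose, against 11.5% of all genes, with medians of 0.60 and 0.63. In Lip+ISO replicate 1 the summed endothelial level was 102 CPM, within the range of the Lip libraries (67.4 to 218 CPM). The summed macrophage level of that library was 124 CPM, above the Lip libraries (55.6 to 62.0 CPM). Klf2 and Klf4 were at 14.8 and 1007 CPM in it. In every group, replicate 2 had both the highest Klf2 level and the highest endothelial sum. Those sums were 252 CPM in DMSO, 545 in ISO, 218 in Lip and 299 in Lip+ISO. Klf4 was not highest in replicate 2 in any group. The part of other cell types in the levels of the 10 genes was not tested.

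**Figure D3:**
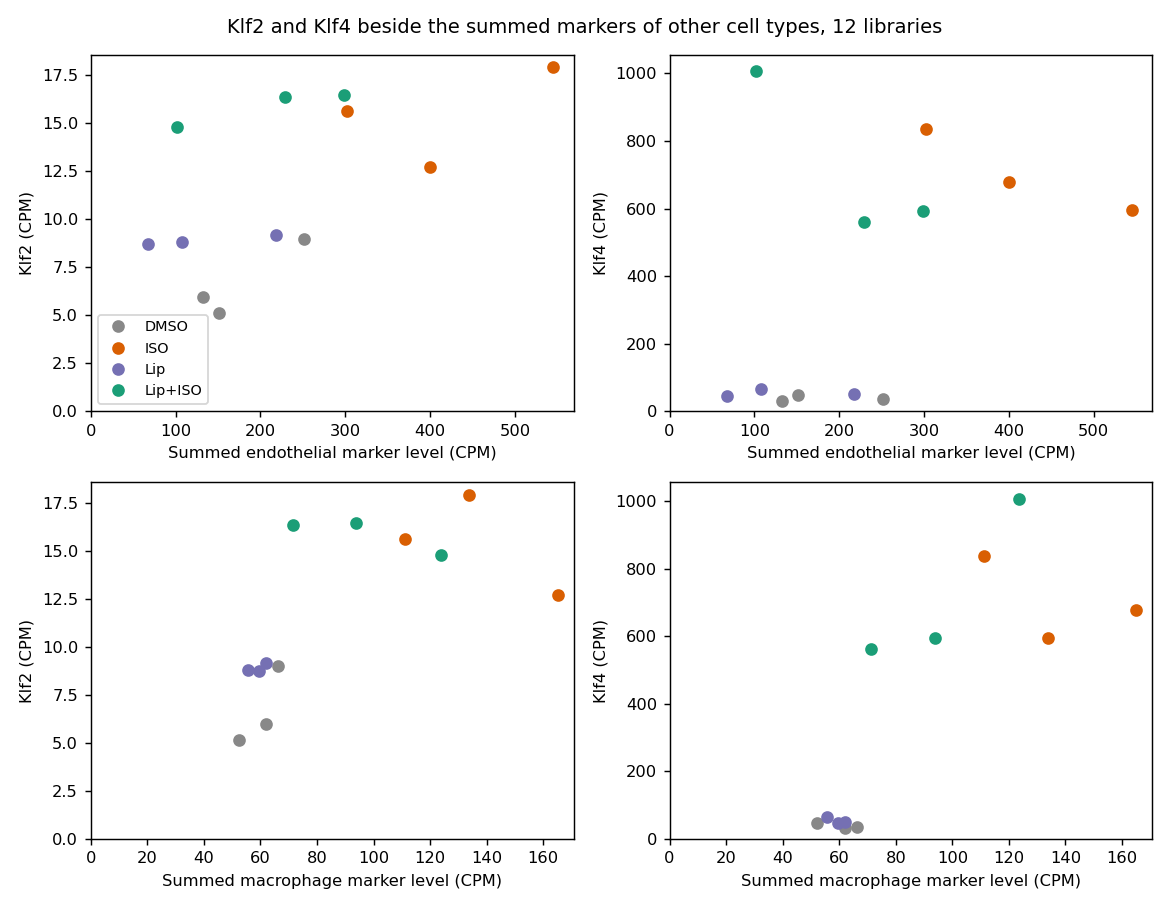
The level of Klf2 (left) and Klf4 (right) in CPM is plotted against the summed CPM of 10 endothelial (top) and 9 macrophage markers (bottom), with 1 point per library and colors for the 4 groups. The highest Klf4 point (1007 CPM, Lip+ISO replicate 1) lies at an endothelial sum of 102 CPM and a macrophage sum of 124 CPM. All ISO and Lip+ISO points lie at 71.4 CPM of macrophage markers or more.

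Klf15 (NM_023184, chr6:90412620-90425203, plus strand), a glucocorticoid-induced activator of amino acid breakdown and gluconeogenesis genes, was the gene that fell in both comparisons. It was at 6.51, 5.54 and 5.01 CPM in DMSO, 1.67, 2.04 and 2.94 in ISO, 7.59, 7.57 and 6.50 in Lip and 2.55, 2.74 and 3.69 in Lip+ISO. Every library with ISO was below every library without it. The log2 fold change was -1.36 ± 0.23 (2.57-fold lower, adjusted p = 9.97e-04, edgeR) without and -1.27 ± 0.23 (2.41-fold lower, adjusted p = 0.00104, edgeR) with the inhibitors, and the interaction was 0.10 (95% interval -0.60 to 0.79, adjusted p = 0.937, edgeR). Among the falls of 13543 genes, these ranked 121 and 253.

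Klf11 (NM_178357, chr12:25336236-25347647, plus strand), a SIN3A-binding relative of Klf10, was at 14.8, 18.0 and 17.7 CPM in DMSO, 15.0, 17.5 and 19.9 in ISO and 16.6, 12.7 and 15.7 in Lip. In Lip+ISO it was at 7.60, 9.15 and 8.74 CPM, below every other library. With ISO alone the log2 fold change was 0.06 ± 0.14 (95% interval -0.25 to 0.36, adjusted p = 0.800, edgeR), and with the inhibitors present Klf11 fell by 0.82 ± 0.15 on the log2 scale (adjusted p = 0.00101, edgeR). Klf6 (NM_011803, chr13:5860735-5869639, plus strand), an immediate early activator that represses Dlk1 in preadipocytes, was likewise lowest in Lip+ISO. It was at 274, 257 and 262 CPM in DMSO, 263, 247 and 257 in ISO and 289, 281 and 269 in Lip, and at 185, 195 and 208 CPM in Lip+ISO, again below every other library. Its log2 fold change was -0.05 ± 0.07 (95% interval -0.20 to 0.10, adjusted p = 0.645, edgeR) with ISO alone and -0.51 ± 0.07 (adjusted p = 1.3e-04, edgeR) with the inhibitors.

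Klf13 (NM_021366, chr7:71031237-71083801, minus strand) and Klf5 did not pass either test of ISO. Klf13, an early activator in adipogenesis, was at 70.8, 67.4 and 92.0 CPM in DMSO, 68.4, 57.3 and 72.7 in ISO, 95.4, 84.9 and 96.6 in Lip and 118, 88.0 and 85.3 in Lip+ISO. Its values overlapped in both comparisons, with log2 fold changes of -0.22 (95% interval -0.53 to 0.10) and 0.07 (-0.24 to 0.39). The span of Klf13 overlaps that of E030018B13Rik on the other strand, and the counting is not stated to use strand, so its counts are uncertain. Klf5 (NM_009769, chr14:99697910-99712628, plus strand), an activator downstream of C/EBPβ and δ in adipogenesis, was the lowest of the 10 genes, at 0.309 to 1.64 CPM (9 to 38 counts) in 11 libraries and at 3.18 CPM (115 counts) in Lip replicate 3. Its intervals were wide, from -1.39 to 1.97 for ISO against DMSO and from -2.37 to 0.86 for Lip+ISO against Lip, and both included 0.

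With Lip against DMSO, 0 of the 10 genes passed the test (edgeR), as did 0 with DESeq2, and of all genes 0.00738% rose and 0.0443% fell. At an unadjusted p under 0.05, 2 of the 10 genes and 582 of all 13543 genes were found. These 2 were Klf2 (log2 fold change 0.41, adjusted p = 1.00, edgeR) and Klf10 (-0.23, adjusted p = 0.787, edgeR), of which the 3 Lip libraries of Klf10 all lay below the 3 DMSO libraries. For the other 8 genes the 2 groups overlapped, with log2 fold changes from -0.17 for Klf11 to 0.99 for Klf5.

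Between Lip+ISO and ISO, Klf3 and Klf13 were higher and Klf11 and Klf6 lower with the inhibitors, against 4.36% and 4.59% of all genes. Only Klf11 changed by at least 1 log2 unit, as did 1.2% of all genes downward. Klf3 was higher by 0.74 ± 0.08 (1.67-fold, adjusted p = 1.5e-04, edgeR), while Klf11 fell by 1.04 ± 0.15 (2.06-fold lower, adjusted p = 7.8e-04, edgeR), and both held without any library or replicate number. Klf6 fell by 0.38 ± 0.07 (1.30-fold lower, adjusted p = 0.00450, edgeR) and held without any single library, but not without replicate number 1 (adjusted p = 0.0503) or 2 (0.107). The call of Klf13, higher by 0.55 ± 0.15 (adjusted p = 0.0333, edgeR), was lost without ISO replicate 1 (adjusted p = 0.0632), 2 (0.142) or 3 (0.0545) or without Lip+ISO replicate 1 (0.102), and also without replicate number 1 (0.157) or 2 (0.177) in all groups. Klf10 was at 0.25 ± 0.08 with groups that did not overlap, and did not pass (adjusted p = 0.0561, edgeR). It passed with the size factors of DESeq2 in edgeR (0.0447) and with DESeq2 itself (0.0186). With the replicate number as a block in edgeR it passed too (0.0218). Klf2 (0.04), Klf5 (-0.06) and Klf15 (0.44) overlapped between the groups and did not pass. Fibroblast, endothelial and macrophage markers had medians of -0.84, -0.79 and -0.41 in this comparison, with 4 of 7 fibroblast and 1 of 10 endothelial markers lower, and their part in the falls of Klf6 and Klf11 was not tested.

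The interaction tests whether the ISO response itself differs with the inhibitors. It was positive for Klf3 (0.69 ± 0.12, adjusted p = 0.0114) and Klf10 (0.48 ± 0.11, adjusted p = 0.0459) and negative for Klf6 (-0.46 ± 0.10, adjusted p = 0.0346, all edgeR), against 0.901% positive and 0.724% negative among all genes. The call of Klf3 held without each of the 12 libraries, and was lost without each of the 3 replicate numbers (adjusted p up to 0.219). That of Klf6 was lost without any of 10 of the 12 (adjusted p up to 0.117) and held without Lip+ISO replicate 1 or 3, and that of Klf10 was lost without any of 11 of the 12 (adjusted p up to 0.147) and held without ISO replicate 1. Without the filter on low counts neither passed (0.0581 for Klf6 and 0.0970 for Klf10), nor did Klf10 with scaling by library totals (0.0992). The largest negative value among the well counted genes, -0.87 ± 0.20 for Klf11, missed the threshold (adjusted p = 0.0553, edgeR). It passed without ISO replicate 1 (0.0381), without Lip replicate 2 (0.0454), with DESeq2 (0.00670) or with the replicate number as a block in edgeR (0.0181). Klf2 (-0.38), Klf9 (-0.31), Klf13 (0.29) and Klf5 (-1.05) did not pass.

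**Figure D4:**
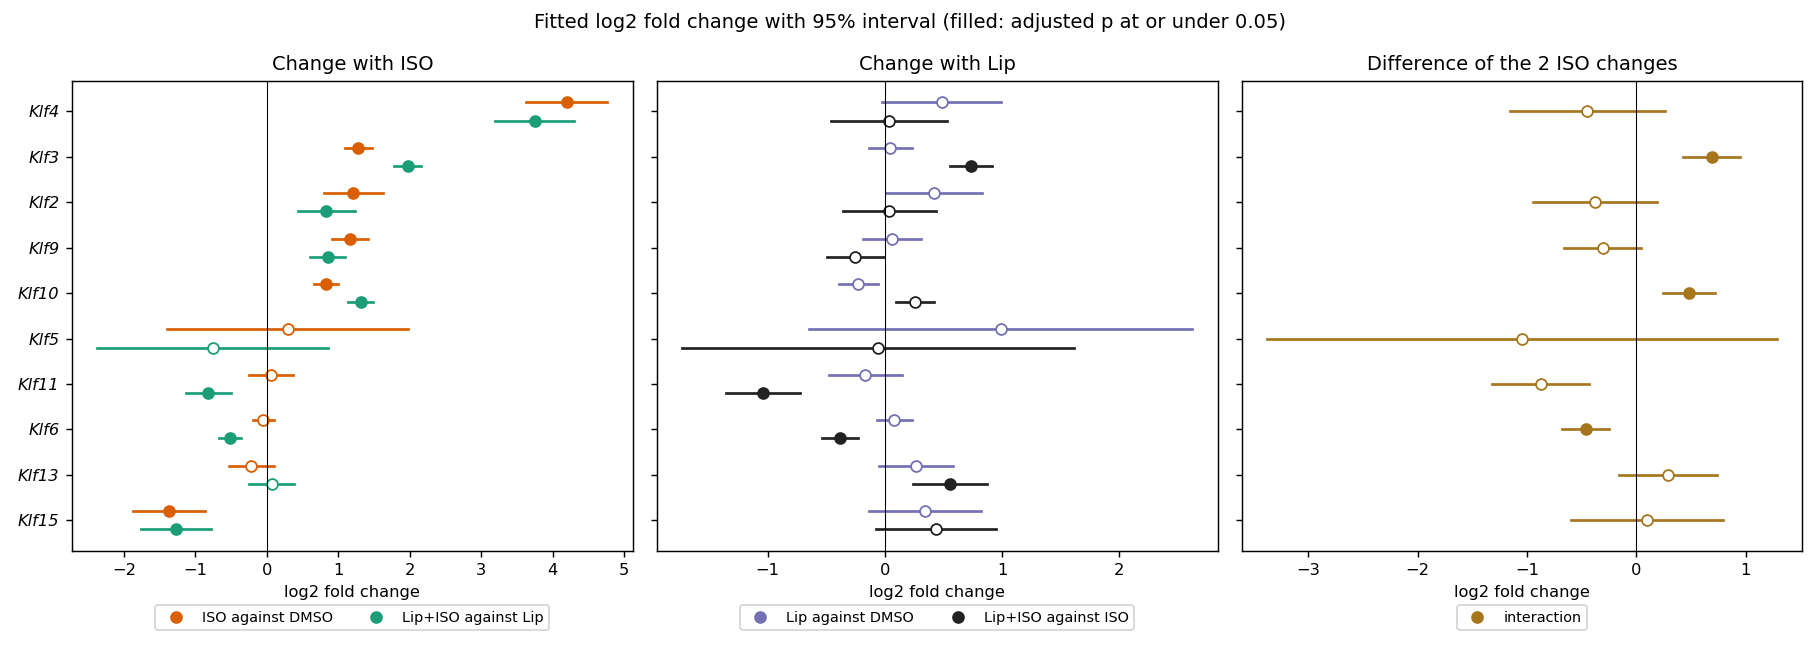
Points give the fitted log2 fold change and lines its 95% interval for each KLF gene, for ISO with and without inhibitors (left), for the inhibitors with and without ISO (middle) and for the interaction (right). Filled points have an adjusted p at or under 0.05 (edgeR), which holds for 6 and 8 genes on the left, 0 and 4 in the middle and 3 on the right.

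As a description over libraries that share groups, the log2 levels of Klf3 and Klf10 had a Pearson r of 0.973 (n = 12), those of Klf4 and Klf10 0.954, those of Klf6 and Klf11 0.825 and those of Klf4 and Klf15 -0.912. The genes whose log2 levels were most like those of Klf4 were Csrnp1 (r = 0.997), Ier3 (0.997) and Nr4a2 (0.995), which are immediate early genes. For Klf3 they were Tuba4a (0.995), the cytokine signaling inhibitor Socs3 (0.995) and the steroidogenic regulator Star (0.994). For Klf10 they were the methionine adenosyltransferase Mat2a (0.990), the aminoacyl-tRNA synthetase Eprs (0.989) and the AP-1 subunit Fosl1 (0.989), and for Klf9 Gadd45g (0.986), Akap13 (0.984) and Tatdn2 (0.983). Crispld2 (0.989), the cytokine Il6 (0.963) and Cerk (0.944) were most like Klf2, and Cyp2u1 (0.979), Usp54 (0.978) and Zfp74 (0.971) most like Klf15.

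Klf6 was most like Creb3l2 (r = 0.960), Rnf144b (0.955) and Cep162 (0.953), and Klf13 like Fam46a (0.917), Zcchc14 (0.916) and Bcl9 (0.902). Klf11 was most like 3110057O12Rik (0.953), Angptl4 (0.950) and Adcy9 (0.950). Angptl4, an inhibitor of lipoprotein lipase and a known PPAR target, was at 1169, 1314 and 1414 CPM in DMSO, 1003, 1088 and 1143 in ISO, 678, 769 and 794 in Lip and 118, 175 and 153 in Lip+ISO. It shared with Klf11 its lowest values in Lip+ISO, while it was also lower in Lip than in DMSO. Klf5 was most like the epithelial keratin Krt8 (0.916), 5730559C18Rik (0.882) and Neurl2 (0.873). Krt8 was at 36.2 CPM in Lip replicate 3, where Klf5 was highest too, and at 0.412 to 9.53 CPM in the other 11 libraries. The 5 mesothelial markers summed to 54.7 CPM in Lip replicate 3 and to 12.8 and 28.4 CPM in Lip replicates 1 and 2. In ISO they summed to 55.4 to 65.9 CPM. Of these markers, Krt19 was at 24.8 CPM in Lip replicate 3, against a Lip minimum of 0.412 CPM. Upk3b, Wt1, Lrrn4 and Msln reached at most 8.82, 11.2, 11.6 and 0.676 CPM in Lip. Their maxima in DMSO were 9.94, 12.2, 18.8 and 0.671 CPM. The part of other cell types in the Klf5 level of that Lip library was not tested.

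Of the 7 other KLF genes, 5 were tested and Klf1 and Klf17 were filtered out. With edgeR, 0 of the 5 passed with ISO against DMSO and 0 with Lip+ISO against Lip (0 and 2 at an unadjusted p under 0.05, and 0 and 0 with DESeq2). Klf16 was lower in Lip+ISO (29.9 to 32.0 CPM) than in ISO (43.7 to 50.6 CPM, log2 fold change -0.57, adjusted p = 0.0317, edgeR). Of the related Sp factors, which bind the same GC boxes, 5 of 9 were tested. Sp2 fell with ISO by 0.63 without and 0.77 with the inhibitors on the log2 scale, and in Lip+ISO against Lip Sp3 (-0.34) and Sp4 (-0.82) fell as well. Sp3 was also lower in Lip+ISO than in ISO (-0.55).

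All 10 listed cofactors were tested. Sin3a, the scaffold of the corepressor complex used by Klf9, Klf10, Klf11 and Klf13, fell with ISO by 0.74 without and 0.57 with the inhibitors on the log2 scale, and the acetyltransferase Kat2b fell by 0.41 and 0.42. Crebbp, a histone acetyltransferase, rose with ISO in the presence of inhibitors (0.52), and its relative Ep300 was higher in Lip+ISO than in ISO (0.43). The corepressors Ctbp1 and Ctbp2 were not among those that passed.

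Of 17 genes that act upstream of KLFs, 2 rose and 3 fell with ISO against DMSO, against 12.3% and 13.9% of all genes. Egr2, an inducer of Klf4 in preadipocytes, rose by a log2 fold change of 1.47, and Mef2d, of the MEF2 factors that drive Klf2 and Klf4 in endothelium, by 0.33. Nr3c1, the glucocorticoid receptor that induces Klf9 and Klf15, fell by 0.79 on the log2 scale, Smurf1 by 0.50 and Smad2 by 0.39. With Lip+ISO against Lip, 1 rose (Mef2d, 0.87) and 9 fell, against 11.5% and 15.8% of all genes. Of those that fell, the largest changes were in Nr3c1 (-1.36), Smurf1 (-0.84), Smad2 (-0.72), Thrb (-0.70) and Mapk7 (-0.66). Another MEF2 factor, Mef2a, fell as well (-0.63). Mef2d (0.53) and Tgfbr1 (0.41) were higher in Lip+ISO than in ISO, and Egr2 (-1.42), Nr3c1 (-0.60), Smad2 (-0.45) and Mef2a (-0.39) lower. Egr2 was at 49.8 to 60.1 CPM in ISO and 14.3 to 25.0 CPM in Lip+ISO. Klf4 was at 596 to 836 CPM in ISO and 561 to 1007 CPM in Lip+ISO. Any part of Egr2 in the level of Klf4 was not tested.

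Of 14 genes known downstream of KLFs in fat or metabolism, 6 rose and 2 fell with ISO against DMSO, against 12.3% and 13.9% of all genes. Those that rose were Ucp1 (log2 fold change 8.11), Ppargc1a (3.79), Arntl (2.10), Cebpb (2.06), Dlk1 (1.39) and Ucp2 (0.57). Those that fell were Cebpa (-0.48) and Pparg (-0.46). Ucp1 rose from low counts, at 0.347 to 0.545 CPM in DMSO (at most 13 counts) and 100 to 142 CPM in ISO. In Lip it was at 0.447 to 1.33 CPM. Dlk1 was at 0.853 to 1.89 CPM in DMSO and 2.42 to 4.34 CPM in ISO. With Lip+ISO against Lip, 11.5% of all genes rose and 15.8% fell. Of the 14 genes, 6 rose (Ucp1 8.22, Ppargc1a 4.04, Arntl 2.23, Cebpb 1.43, Ucp2 0.53 and Cebpd 0.44) and Cebpa fell by 0.91. Several of these are also direct cAMP responders. In Lip+ISO against ISO, Ucp1 (0.86), Cebpd (0.81) and Pparg (0.55) were higher and Pck1 (-1.11) and Cebpa (-0.61) lower, and the interaction was positive for Pparg (0.58, adjusted p = 0.0274, edgeR). In Lip against DMSO, 0 genes of the lists of other KLFs, Sp factors, cofactors, upstream and downstream genes passed with edgeR or DESeq2, and 1 Sp factor and 2 downstream genes had an unadjusted p under 0.05 (edgeR).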

How the data were processed

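RNA was sequenced from 12 libraries of floated, hydrogel-cultured mouse eWAs (TruSeq2 libraries, per the labels). The authors aligned reads to mm9 with STAR 2.4.2a, per the submitters' processing notes, which also name HOMER, and the study's methods describe gene-level counts made with HOMER and iRNA-seq. Genes in the table carry RefSeq identifiers. The deposited values are raw read counts per gene, with no normalization, and whether strand was used is not given in the sources used here. Transcript and counted lengths were deposited beside them, and the counted length was used for levels per kilobase. Groups and replicate numbers came from the sample titles.

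Counts were tested in R 4.3.3 with edgeR 4.0.16: filterByExpr (minimum count 10, 13543 of 20295 genes), TMM scaling (factors 0.924 to 1.07), 1 mean per group over all 12 libraries, and the two-sided quasi-likelihood F-test with Benjamini-Hochberg adjustment over all tested genes in 5 contrasts. The common biological coefficient of variation was 0.163. TMM factors also scaled the CPM values, and a prior count of 2 was added for log2 CPM. The test was checked on simulated counts in which libraries varied independently, so the check does not cover libraries that deviate together. Standard errors were taken from the fold change and its F statistic, and intervals are at 95%. Alternatives were other scalings, no filter, DESeq2 1.42.0, only the groups compared, the replicate number as a block, and leaving out libraries. Start windows were read from the NCBIM37 genome (mm9) and compared with starts in GENCODE, and figures were drawn with Python 3.11.15 and matplotlib 3.10.9.

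The 10 genes, the lists of related genes and the tests were chosen with earlier results of these data known. Named are the 10 genes, up to 6 genes per list and contrast that passed, by size of change, and the 3 tested genes most correlated with each KLF gene. Beyond this rule, genes of the cAMP check and markers, Mef2a in Lip+ISO against Lip, and genes that were listed but did not pass, were named after their values were seen. The sources describe 3 independent experiments, and 1 figure legend names SR-3420 instead of ISO as the stimulus for these cells, whereas the titles name ISO.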

Additional observations from a re-analysis of the deposited data

Results flagged for a closer look

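The ISO response differed between cells with and without lipase inhibitors for 3 of the 10 KLF genes by the interaction test (edgeR, adjusted p at or under 0.05), where 0.901% of all genes were positive and 0.724% negative. The difference of the log2 fold changes was 0.69 for Klf3 and 0.48 for Klf10, which responded more with the inhibitors, and -0.46 for Klf6, which fell in Lip+ISO against Lip. Leaving out 1 library ended the call of Klf6 in 10 of 12 fits and that of Klf10 in 11 of 12, and leaving out any of the 3 replicate numbers ended all 3 calls. No cause was tested. Groups of 3 libraries were not searched by a set rule for single libraries that stand apart. Single libraries named in the text were described from their levels.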

How the results depend on the processing

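In ISO against DMSO and Lip+ISO against Lip, every KLF call at an adjusted p of 0.05 held in all settings tried. Asking for at least 1 log2 unit left 3 higher and 1 lower in Lip+ISO against Lip, 0 higher and 1 lower in Lip+ISO against ISO, and 0 positive and 0 negative interactions. With only the groups compared, 1 gene was higher in Lip+ISO than in ISO (Klf13 at an adjusted p of 0.0611). Positive interactions numbered 1 with library totals and 1 without the filter, and negative ones 0 without the filter and 2 with DESeq2. Leaving out libraries or replicate numbers gave 1 to 2 genes higher and 1 to 3 lower in Lip+ISO against ISO, and 0 to 2 positive and 0 to 1 negative interactions. The cause was not tested.

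With the replicate number as a block, negative interactions numbered 2 (Klf6 and Klf11, Klf11 at -0.87, adjusted p = 0.0181), and Klf9 (-0.26, adjusted p = 0.0411) and Klf10 (0.26, adjusted p = 0.0218) passed in Lip+ISO against ISO; no other KLF call changed. Deviations from group means correlated over 0.1 in 17 of 18 same-numbered pairs (0.0373 to 0.369) and in 0 of 36 others. All 12 libraries correlated best with their own number. Libraries with the same number thus deviated together. The study's methods describe independent experiments, but the labels do not tie the numbers to them. The main tests leave the number out, and the calls of Klf9, Klf10 and Klf11 named here depend on that choice.

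Signs turned only in values that passed no test. With library totals, Klf13 in Lip+ISO against Lip was -0.036, and under the block Klf5 in Lip+ISO against ISO was 0.084. Over the 15 fits that left out a library or number, Klf5 ranged from -0.39 to 1.11 (ISO against DMSO), -1.50 to 0.73 (Lip+ISO against Lip), -0.30 to 1.70 (Lip against DMSO), -0.91 to 0.83 (Lip+ISO against ISO) and -2.61 to 1.13 (interaction). Klf11 ranged from -0.045 to 0.15 (ISO against DMSO), Klf13 from -0.094 to 0.19 (Lip+ISO against Lip), Klf2 from -0.11 to 0.16 and Klf4 from -0.29 to 0.20 (Lip+ISO against ISO), and Klf15 from -0.062 to 0.33 (interaction).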
